A study of Mus musculus with 24 samples.

Results

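The thyroid hormone genes described here were 7 genes of the heart transcriptome, chosen by symbol in the platform annotation of the value table: Thra, Thrb, Slc16a10, Dio2, Dio3, Thrsp and Me1. All 7 were found, among 24011 named genes, with 1 row each. Cardiac RNA was hybridised to Affymetrix arrays. The mice, of strain C57BL/6J, were 8 weeks old and had free access to food and water. Occlusion of the middle cerebral artery (MCAO), a model of ischemic stroke in the brain, was compared with a sham operation. Hearts were taken after 24 h or 72 h, with 6 arrays in each of the 4 groups (sham 24 h, MCAO 24 h, sham 72 h, MCAO 72 h). No transgene, deletion or drug is named for any group. The question put to the 7 genes was whether the level of the thyroid hormone machinery in the heart differed after a stroke at either time.

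Thyroid hormone enters cells through membrane transporters, is activated by the deiodinase encoded by Dio2 and inactivated by that encoded by Dio3, and acts on nuclear receptors encoded by Thra and Thrb. The receptors bind response elements together with retinoid X receptors and exchange corepressors for coactivators when hormone is bound. In the heart the hormone is known to favour the fast alpha over the slow beta myosin heavy chain and to set contractile, ion channel and metabolic genes. Thrsp and Me1 are classical hormone-induced genes of fat synthesis, best known from liver and fat.

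Of the 7 genes, Slc16a10 fell and Thrsp rose at 24 h after MCAO, and the MCAO effect on Thrsp differed between 24 h and 72 h. Slc16a10 was 1.68-fold lower and Thrsp 1.40-fold higher at 24 h. At 72 h none of the 7 genes passed the threshold (limma, Benjamini-Hochberg adjusted p below 0.05 over all 24011 genes). An unadjusted p below 0.05 was found there for 3 of them, Slc16a10, Thrsp and Me1, and for 2627 of all 24011 genes. Neither receptor gene and neither deiodinase gene passed at either time. The 2 of 7 called at 24 h stood against 21.8% of all genes called there (11.1% higher, 10.8% lower), so the share of the set was near the background. The 0 of 7 at 72 h stood against 2.35% (1.17% higher, 1.19% lower), and the 1 of 7 for the difference between times, Thrsp, against 1.79% (0.800% lower). Between the sham groups 0 of 7 passed, against 0.0208% of all genes. At an unadjusted p below 0.05 the count was 0 of 7, against 885 of 24011 genes.

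The arrays of the MCAO 24 h group were the least alike. They correlated with the mean of the rest of their group at r = 0.971 to 0.991 across genes, with replicates 5 and 6 lowest, against 0.985 to 0.997 in the other 3 groups. The median SD of a gene within groups was 0.192 at 24 h and 0.116 at 72 h on the log2 scale. The table holds no detection call. As a stand-in for background, the level that 95% of 1348 olfactory and vomeronasal receptor genes stayed under was used, 3.95 over all arrays. Of these receptor genes, which serve the nose and are not thought to be used in heart, 156 (11.6%) also passed at 24 h and 1 at 72 h. Tissue identity was checked with 7 cardiomyocyte markers, whose mean level was 12.4 to 12.9 on every array. In tissue RNA, fewer cells of a type and less RNA per cell cannot be told apart.

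**Figure D1:**
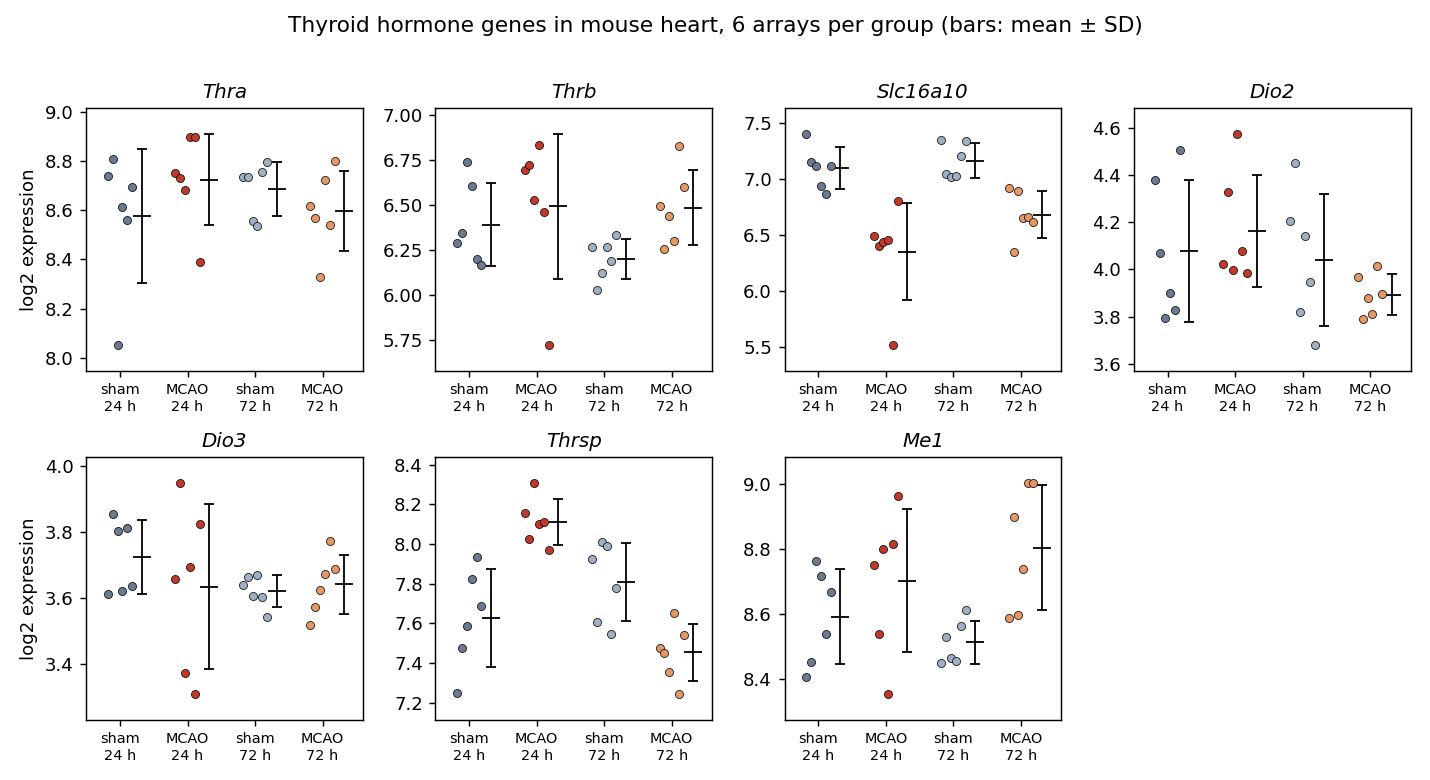
Log2 expression of the 7 genes on every array (points, in order of replicate number within a group), with the mean and SD of the 6 arrays of each group beside them. Slc16a10 is lower on all MCAO arrays than on all sham arrays of the same time, and Thrsp is highest in MCAO 24 h and lowest in MCAO 72 h. Axes differ between genes and do not start at 0.

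The sequences just before the start sites of Slc16a10 and Thrsp are shown because these were the members that passed. They are the 250 bases upstream of the annotated start (RefSeq, GRCm38.p6, minus strand for both genes), chr10:40142255-40142504 for Slc16a10 and chr7:97417551-97417800 for Thrsp. Both are printed 5′ to 3′ in the direction of the gene. Capitals mark each match to CCAAT on either strand, a common promoter element bound by NF-Y.
Slc16a10: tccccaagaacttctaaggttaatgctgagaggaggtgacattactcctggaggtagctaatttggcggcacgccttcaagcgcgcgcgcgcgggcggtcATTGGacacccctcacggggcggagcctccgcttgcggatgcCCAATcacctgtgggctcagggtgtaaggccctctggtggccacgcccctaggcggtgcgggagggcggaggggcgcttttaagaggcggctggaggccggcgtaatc
Thrsp: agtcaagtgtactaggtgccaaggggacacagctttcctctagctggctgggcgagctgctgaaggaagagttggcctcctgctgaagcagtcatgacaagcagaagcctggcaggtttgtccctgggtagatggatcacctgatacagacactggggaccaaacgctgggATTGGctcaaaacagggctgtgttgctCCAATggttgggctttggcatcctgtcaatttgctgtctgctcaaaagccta
Each window held 2 CCAAT matches, in opposite orientations. In Slc16a10 they began 150 and 108 bases before the start, and in Thrsp 79 and 52 bases before it. Of 32851 windows of the same length 33.8% held at least 1 such match. The half-site AGGTCA, searched on both strands, is the letter pattern that thyroid hormone receptors and many other nuclear receptors bind. It had no match in either window and was present in 14.0% of all windows. The direct repeat of that half-site (AGGTCA, any 4 bases, AGGTCA) was present in 0.0152% of windows and in none of the members' windows. The glucocorticoid receptor half-site AGAACA, searched the same way, was also without a match in both windows, against 16.1% of all windows. These searches describe the letters of short windows only; the known response elements of the rat Thrsp gene lie farther upstream than such a window reaches. Of the 7 genes, 6 had an entry in the promoter table.

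Thra encodes the main thyroid hormone receptor of cardiomyocytes, and its level showed no change past the test. In sham 24 h it ranged from 8.05 to 8.81 (median 8.65), in MCAO 24 h from 8.39 to 8.90 (median 8.74), in sham 72 h from 8.54 to 8.79 (median 8.74) and in MCAO 72 h from 8.33 to 8.80 (median 8.59), all in log2. The groups overlapped at both times. The difference between MCAO and sham was 0.15 at 24 h (95% interval -0.07 to 0.37, adjusted p = 0.347) and -0.09 at 72 h (-0.31 to 0.13, adjusted p = 0.970). From high to low the group means were 8.72 (MCAO 24 h), 8.69 (sham 72 h), 8.60 (MCAO 72 h) and 8.58 (sham 24 h). Each neighbouring pair differed by less than the SD of either group. In RefSeq (GRCm38.p6) the gene models of Thra and of Nr1d1, the circadian repressor gene that lies against it, share 1075 bases. Which probes fall in that stretch is not given in the sources used here. Nr1d1 differed by 0.03 at 24 h (SE 0.14) and by -0.36 at 72 h (SE 0.14, adjusted p = 0.222), and did not pass at either time. With array weights the 72 h difference passed (adjusted p = 0.0179). The 24 h value was negative with array weights (-0.12), and also when MCAO 24 h replicates 5 and 6 were left out (-0.08).

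Thrb encodes the second receptor, which carries the hormone's feedback on the pituitary and is also present in heart. Its lowest, median and highest values were 6.17, 6.32 and 6.74 in sham 24 h and 5.72, 6.61 and 6.83 in MCAO 24 h. At 72 h they were 6.03, 6.23 and 6.33 in sham and 6.25, 6.46 and 6.83 in MCAO hearts. All 6 MCAO arrays at 72 h lay above the sham mean, although the lowest MCAO arrays overlapped the sham range. The difference was 0.28 at 72 h (95% interval -0.01 to 0.58, adjusted p = 0.496) and 0.10 at 24 h (-0.19 to 0.40, adjusted p = 0.648). Without MCAO 24 h replicate 6, the lowest array of its group, the 24 h value was 0.26 (adjusted p = 0.0835), and leaving out replicate 5 as well gave 0.30 (adjusted p = 0.0531). The group means ran from 6.49 in both MCAO groups through 6.39 in sham 24 h to 6.20 in sham 72 h. Neither step exceeded the larger SD of the groups on its sides. The sham groups differed by 0.19, which did not pass.

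Slc16a10 encodes a membrane transporter of aromatic amino acids that also carries thyroid hormone. It fell at 24 h. Sham 24 h arrays lay between 6.87 and 7.40 (median 7.12) and MCAO 24 h arrays between 5.52 and 6.80 (median 6.45). No MCAO array reached the lowest sham array, and replicate 5 was far below the rest of its group. The log2 difference was -0.75 (SE 0.15, 95% interval -1.05 to -0.44, adjusted p = 0.00105), and 2.39% of all genes differed by more in either direction. Without MCAO 24 h replicates 5 and 6 the adjusted p was 2.19e-04.

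At 72 h Slc16a10 lay between 7.02 and 7.35 in sham (median 7.12) and between 6.35 and 6.92 in MCAO hearts (median 6.66). The groups again did not overlap, which held for 3.54% of all genes at this time (1.77% lower) and for 5.53% at 24 h (2.65% lower). The difference of -0.48 (SE 0.15, 1.40-fold) did not pass in the fit of all 24 arrays (adjusted p = 0.0964), in which the spread at 24 h also counts. It passed when the 12 arrays of this time alone were fitted (adjusted p = 0.0110), with array weights (adjusted p = 0.00118), without MCAO 24 h replicate 5 (adjusted p = 0.00749) and without MCAO 24 h replicates 5 and 6 (adjusted p = 0.00366). The MCAO effect was 0.27 less negative at 72 h than at 24 h (95% interval -0.16 to 0.70, adjusted p = 0.540), so a difference between the times was not shown. In order of means the groups were sham 72 h (7.16), sham 24 h (7.10), MCAO 72 h (6.68) and MCAO 24 h (6.35). The sham groups differed by less than the SD of either, and the MCAO groups overlapped.

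Dio2 and Dio3 encode the deiodinases that activate and inactivate the hormone within tissues. Both were dim. Dio3 averaged 3.65 over all arrays, below the level that 95% of the nasal receptor genes stayed under, and exceeded its group's value of that level on 1 of 24 arrays. Dio2 averaged 4.04 and exceeded it on 14 of 24 arrays. The values of both genes thus lay near that level.

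Dio2 ranged from 3.79 to 4.51 in sham 24 h (median 3.98), from 3.98 to 4.58 in MCAO 24 h (median 4.05), from 3.68 to 4.45 in sham 72 h (median 4.04) and from 3.79 to 4.02 in MCAO 72 h (median 3.89). Its groups overlapped at both times, with differences of 0.09 at 24 h (95% interval -0.19 to 0.36, adjusted p = 0.688) and -0.15 at 72 h (-0.42 to 0.13, adjusted p = 0.902). The sign at 24 h turned with array weights (-0.01). Dio3 ranged from 3.31 to 3.95 over all arrays, with group means between 3.62 and 3.72. Its differences were -0.09 at 24 h (95% interval -0.26 to 0.08, adjusted p = 0.477) and 0.02 at 72 h (-0.15 to 0.20, adjusted p = 1). For Dio3os, the transcript listed next to Dio3 (a gap of 1161 bases in RefSeq), the differences were -0.12 at 24 h (SE 0.11, adjusted p = 0.463) and 0.01 at 72 h (SE 0.11, adjusted p = 1). Without MCAO 24 h replicates 5 and 6 the 24 h difference of Dio3os passed (adjusted p = 0.0159). Dio3os was also dim, at an average of 4.06.

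Thrsp encodes a small nuclear protein that promotes fatty acid synthesis and is strongly induced by thyroid hormone in liver. Its difference from sham had opposite signs at the 2 times. At 24 h sham arrays lay between 7.25 and 7.93 (median 7.64) and MCAO arrays between 7.97 and 8.31 (median 8.10). Every MCAO array was above every sham array, which held for 2.88% of all genes in this direction. The log2 difference was 0.48 (SE 0.10, 95% interval 0.27 to 0.70, adjusted p = 0.00197).

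At 72 h sham arrays of Thrsp lay between 7.55 and 8.01 (median 7.85) and MCAO arrays between 7.24 and 7.65 (median 7.46). All 6 MCAO arrays were below the sham mean, and the 2 lowest sham arrays fell within the MCAO range. The difference of -0.36 (SE 0.10, 95% interval -0.57 to -0.14, 1.28-fold) did not pass (adjusted p = 0.0715). It passed in the fit of the 12 arrays of this time (adjusted p = 0.0380) and with array weights (adjusted p = 0.0117). It also passed without sham 24 h replicate 1 (adjusted p = 0.0404), without sham 24 h replicate 5 (adjusted p = 0.0472) or without sham 72 h replicate 5 (adjusted p = 0.0431).

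The change between the times was tested directly for Thrsp. The MCAO effect at 72 h was lower than that at 24 h by 0.84 (SE 0.15, 95% interval -1.14 to -0.54, adjusted p = 0.00713), and 0.750% of all genes differed by more. It passed whichever array was left out (adjusted p between 0.00506 and 0.0158). The MCAO groups of the 2 times did not overlap, and 1.72% of all genes were lower at 72 h in this way. In order of means the groups were MCAO 24 h (8.11), sham 72 h (7.81), sham 24 h (7.63) and MCAO 72 h (7.45). The sham groups differed by 0.18 (SE 0.10), which was less than the SD within sham 24 h of 0.25 and did not pass. MCAO 24 h overlapped sham 72 h, and sham 24 h overlapped MCAO 72 h.

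Me1 encodes the cytosolic malic enzyme, which supplies NADPH for fat synthesis. At 24 h sham arrays lay between 8.41 and 8.76 (median 8.60) and MCAO arrays between 8.35 and 8.96 (median 8.77), so the groups overlapped widely (difference 0.11, 95% interval -0.08 to 0.31, adjusted p = 0.422). At 72 h sham arrays lay between 8.45 and 8.61 (median 8.50) and MCAO arrays between 8.59 and 9.00 (median 8.82). Only the lowest MCAO arrays touched the sham range, and all 6 were above the sham mean. The difference of 0.29 (SE 0.09, 1.22-fold) did not pass in the fit of all arrays (adjusted p = 0.123) and passed with the 12 arrays of this time (adjusted p = 0.0440) and with array weights (adjusted p = 0.0151). Me1 therefore lay on the other side of sham from Thrsp at 72 h. The difference of its effect between times was 0.18 (95% interval -0.10 to 0.46, adjusted p = 0.516). The means ran from MCAO 72 h (8.80) through MCAO 24 h (8.70) and sham 24 h (8.59) to sham 72 h (8.51), each step smaller than the larger SD on its sides.

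**Figure D2:**
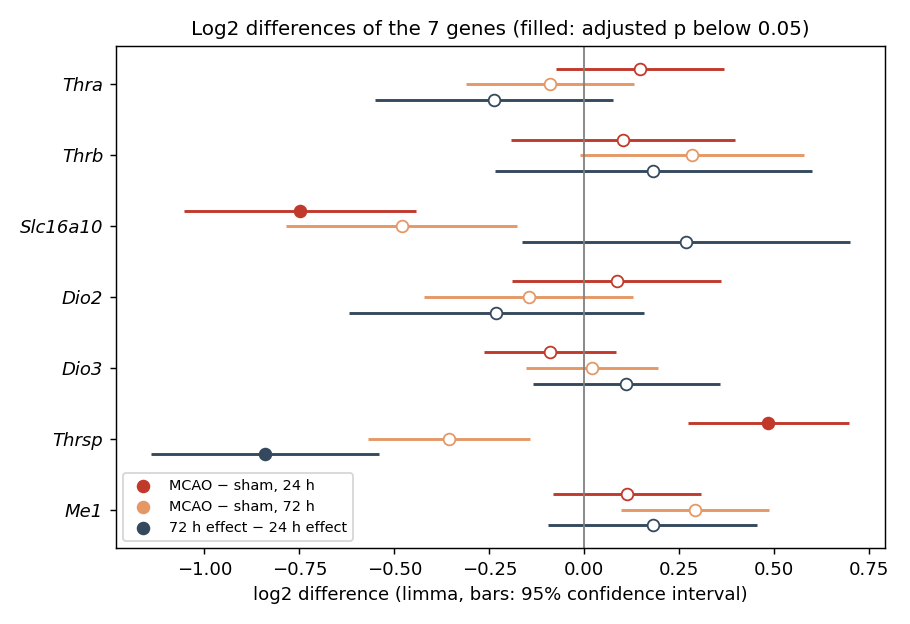
Log2 differences with 95% confidence intervals from the limma fit of all 24 arrays, for MCAO against sham at each time and for the 72 h effect less the 24 h effect. Filled points had an adjusted p below 0.05. Slc16a10 and Thrsp at 24 h and the difference between times of Thrsp are filled.

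By the rule for likeness, the genes whose level followed Slc16a10 most closely over the 24 arrays were Mrpl39 (a mitochondrial ribosome gene; Pearson r = 0.923, Spearman rho = 0.837), Fhl2 (a heart LIM domain gene; r = 0.919, rho = 0.844) and Lman1 (a cargo receptor of the secretory pathway; r = 0.908, rho = 0.847). For deviations from the group means alone, r was 0.846, 0.777 and 0.850. These 3 genes fell at 24 h by 0.61, 0.63 and 0.53 and did not pass at 72 h. For Thrsp the closest were Smpd2 (a sphingomyelinase gene; r = 0.769, rho = 0.745), Nnmt (a nicotinamide methyltransferase gene; r = 0.767, rho = 0.778) and the sulfotransferase gene Sult2a5 (r = 0.763, rho = 0.757). Their r of deviations was 0.522, 0.440 and 0.448, so Thrsp was followed less closely than Slc16a10. These are the highest of 20357 genes ranked and are given as a description; the arrays and their normalization are shared by all genes.

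The other genes of the system were 46 measured genes of 52 listed, in 4 lists. At 24 h 12 rose and 8 fell, 20 of 46 or 43.5%, against 21.8% of all genes (11.1% rose and 10.8% fell). Their median difference was 0.02, against 0.01 over all genes. At 72 h 5 rose and 1 fell, 13.0% against 2.35% (1.17% rose and 1.19% fell), with a median of 0.01 against 0.00. The 24 h count was 12 when the 12 arrays of that time alone were fitted, and the 72 h count was then 11. The lists were written with earlier results of these data known, and some of their genes had been described from them, so the counts are descriptions. The counts of each list below are to be read against the shares of all genes given here.

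Transport, deiodination and binding genes moved both ways at 24 h. Of 7 measured genes 2 rose, 1 fell, and the median difference was 0.20. Slc3a2 and Slc7a5 encode the heavy and light chain of an exchanger of large neutral amino acids that also carries thyroid hormone. Slc3a2 ranged from 7.82 to 8.12 in sham 24 h (median 7.91) and from 8.29 to 9.01 in MCAO 24 h (median 8.65), without overlap, a rise of 0.67 (SE 0.10, adjusted p = 8.19e-05). At 72 h it ranged from 7.80 to 8.28 in sham (median 8.04) and from 8.41 to 8.81 in MCAO hearts (median 8.62), again without overlap, a rise of 0.55 (SE 0.10, adjusted p = 0.00245). It was the 1 gene of this list that passed at 72 h in the fit of all 24 arrays.

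Slc7a5 rose by 0.67 at 24 h (SE 0.14, adjusted p = 0.00194), from 4.21 ± 0.28 to 4.88 ± 0.36 (SD, n = 6 each), and differed by 0.33 at 72 h (SE 0.14, adjusted p = 0.322). Slc7a8, which encodes another light chain that pairs with the Slc3a2 product, differed by 0.64 at 24 h (SE 0.27, adjusted p = 0.0871) and 0.73 at 72 h (SE 0.27, adjusted p = 0.197). Without MCAO 24 h replicate 6 the 24 h value of Slc7a8 passed (adjusted p = 0.0166). At 72 h Slc7a5 passed in the 12-array fit (adjusted p = 0.0471) and Slc7a8 with array weights (adjusted p = 0.0309). Thus Slc16a10 on the one side and the chains of the exchanger, Slc3a2 and Slc7a5, on the other changed in opposite directions at 24 h. The Slc16a10 transporter and the exchanger both carry amino acids as well as hormone. Crym, which encodes a cytosolic thyroid hormone binding protein, fell by 0.34 at 24 h (SE 0.09, adjusted p = 0.0111), a call that ended in the 12-array fit (adjusted p = 0.0570). The liver and kidney deiodinase gene Dio1 (-0.16, SE 0.10), the brain barrier transporter gene Slco1c1 (0.16, SE 0.07) and Secisbp2 (0.20, SE 0.11), needed to make the deiodinases, did not pass at 24 h. Slco1c1 averaged 3.80, below the nasal receptor level of 3.95, and exceeded its group's value of that level on 4 of 24 arrays. Dio1, Crym and Slc7a5 averaged 4.02, 4.38 and 4.45, above that level, and exceeded their group's value on 20, 23 and 22 of 24 arrays.

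**Figure D3:**
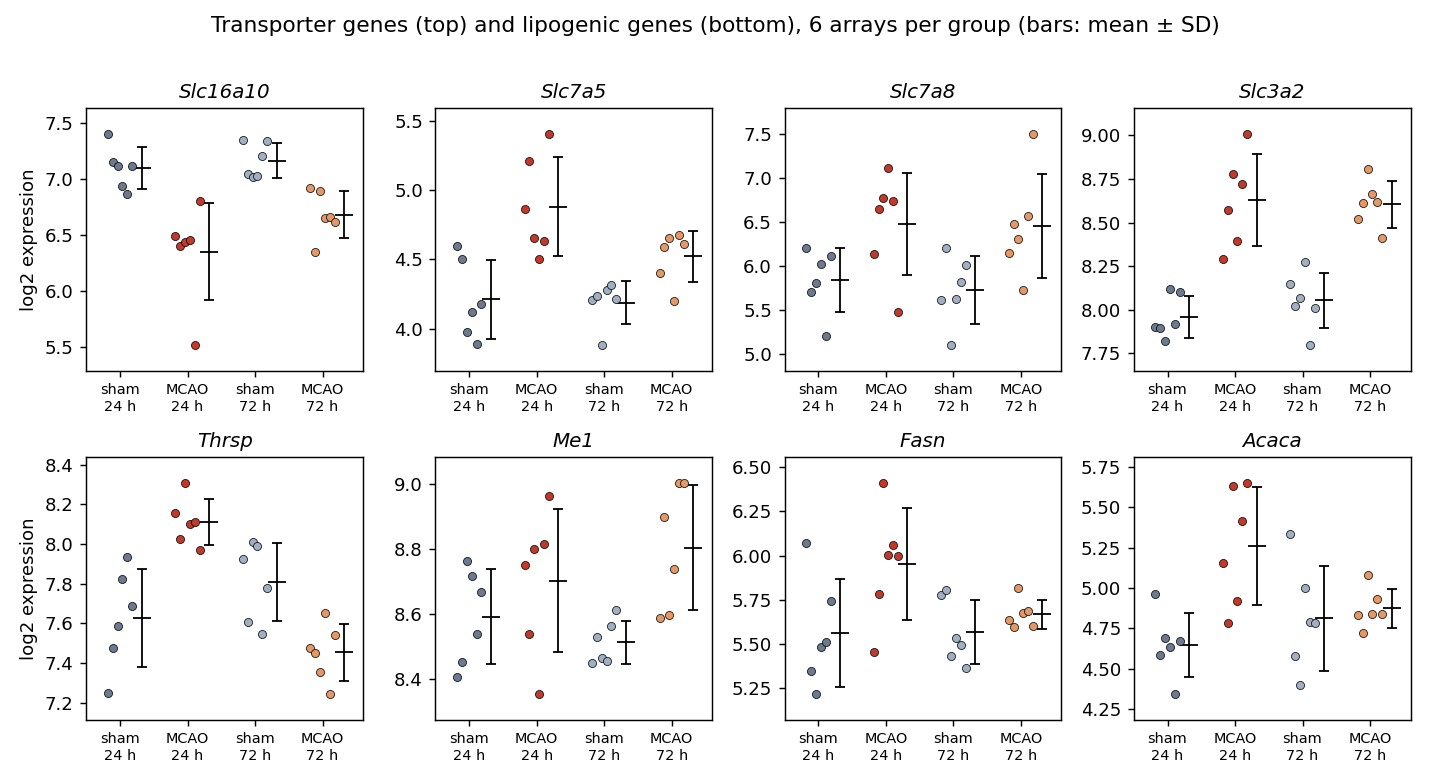
Log2 expression on every array (points) with the mean and SD of the 6 arrays of each group, for 4 transporter genes (top) and 4 genes of fat synthesis (bottom). Slc16a10 is lower after MCAO at both times while Slc3a2 is higher, in each case without overlap with sham. Axes differ between genes and do not start at 0.

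Among 14 measured receptor partners and coregulators 5 rose and 1 fell at 24 h, with a median difference of 0.15. Ncoa3, a steroid receptor coactivator gene, rose by 0.51 (SE 0.06, adjusted p = 4.65e-06), from 7.75 ± 0.06 to 8.25 ± 0.09, and was the 1 member that rose at 72 h (0.30, SE 0.06, adjusted p = 0.00362). Tbl1xr1 and Gps2, subunits of the corepressor complex, rose by 0.78 (SE 0.13) and 0.34 (SE 0.08) at 24 h, and the acetyltransferase genes Ep300 and Crebbp by 0.38 (SE 0.08) and 0.24 (SE 0.08). The genes that rose therefore included members of both the coactivator and the corepressor side. Rxrg, the retinoid X receptor gene that is prominent in muscle, fell by 0.40 (SE 0.10, adjusted p = 0.00511), whereas Rxra (0.05, SE 0.08) and Rxrb (0.25, SE 0.10) did not pass. Crebbp lost its call in the 12-array fit (adjusted p = 0.109) and when any of 8 single arrays was left out (up to 0.0898).

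Of 18 measured genes that thyroid hormone is known to induce, 4 rose and 3 fell at 24 h, with a median of -0.09. Those that rose were Klf9 (0.68, SE 0.13, adjusted p = 0.000837), a transcription factor gene that glucocorticoids also induce, the lipogenic genes Acaca (0.61, SE 0.15, adjusted p = 0.00540) and Fasn (0.39, SE 0.13, adjusted p = 0.0383), and the potassium channel gene Kcna5 (0.48, SE 0.14, adjusted p = 0.0156). Those that fell were Myh6 (-0.33), Atp1b1 (-0.22), a sodium pump subunit gene, and Ryr2 (-0.18), the calcium release channel gene. At 72 h Klf9 (0.60, SE 0.13) and Kcna5 (0.56, SE 0.14) rose and the potassium channel gene Kcnd2 fell (-0.88, SE 0.20, adjusted p = 0.0140). The calcium pump gene Atp2a2 differed by -0.05 and -0.09 (SE 0.07) at the 2 times and did not pass.

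Of these calls at 24 h, Fasn (adjusted p = 0.152), Kcna5 (0.0534), Myh6 (0.104), Atp1b1 (0.0754) and Ryr2 (0.124) ended in the 12-array fit, and Fasn, Ryr2 and Atp1b1 also when any of 8, 7 and 4 single arrays was left out (up to 0.0995, 0.0948 and 0.0760). With array weights 9 of the 20 genes called at 24 h over all lists did not pass, among them Rxrg (adjusted p = 0.0918), Crym (0.178) and Acaca (0.0540). Without MCAO 24 h replicates 5 and 6, 14 of the 20 passed. The calls that ended were those of Ryr2 (adjusted p = 0.186), Atp1b1 (0.105), Kcna5 (0.0998), Fasn (0.0968), Crym (0.0779) and Crebbp (0.0666). At 72 h Kcna5 lost its call when any of 6 single arrays was left out (up to 0.0820).

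Of the other lipogenic genes, Acaca and Fasn rose at 24 h and did not pass at 72 h, while Me1, given above, differed more from sham at 72 h than at 24 h without passing at either time. Acaca, the rate-setting carboxylase of fatty acid synthesis, had medians of 4.65 in sham 24 h, 5.29 in MCAO 24 h, 4.79 in sham 72 h and 4.84 in MCAO 72 h. Fasn, the fatty acid synthase gene, had medians of 5.50, 6.00, 5.52 and 5.66 in the same order. The difference of the MCAO effect between times was -0.55 for Acaca (SE 0.21, adjusted p = 0.165) and -0.29 for Fasn (SE 0.19, adjusted p = 0.447), so for these genes a change between times was not shown.

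Genes that thyroid hormone is known to repress in heart were mixed. Of 7 measured 1 rose and 3 fell at 24 h, with a median of -0.34. The sodium-calcium exchanger gene Slc8a1 fell by 0.51 (SE 0.11, adjusted p = 0.00187), Kcne1 by 0.92 (SE 0.15, adjusted p = 1.97e-04) and its partner Kcnq1 by 0.48 (SE 0.11, adjusted p = 0.00328). The adenylyl cyclase gene Adcy6 rose (0.31, SE 0.11, adjusted p = 0.0435), a call that ended in the 12-array fit (adjusted p = 0.149) and when any of 13 single arrays was left out (up to 0.108). Phospholamban (Pln) differed by 0.06 and -0.04 (SE 0.04) and did not pass at either time.

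The myosin pair that thyroid hormone switches moved unequally in log2 value. Myh6, the fast alpha chain, lay between 12.8 and 12.9 on all sham arrays, against 11.9 to 12.7 in MCAO 24 h and 12.4 to 12.8 in MCAO 72 h. Its difference was -0.33 at 24 h (SE 0.10, adjusted p = 0.0174), a call that ended in the 12-array fit (adjusted p = 0.104) and with array weights (adjusted p = 0.0604). Without MCAO 24 h replicate 5 that value was -0.20 (adjusted p = 0.0113). At 72 h the difference was -0.27 (SE 0.10, adjusted p = 0.176), which passed in the 12-array fit (0.0141), with array weights (0.00300) and without MCAO 24 h replicate 5 (0.00380). Myh7, the slow beta chain, rose by 3.07 at 72 h (SE 0.35, adjusted p = 1.95e-05) and was the 1 gene of its list that passed there, after 0.25 at 24 h (SE 0.35, adjusted p = 0.643), a value whose sign turned without MCAO 24 h replicate 2 (-0.014). At 72 h Thra differed by -0.09 (95% interval -0.31 to 0.13) and Thrb by 0.28 (-0.01 to 0.58), and neither passed. A link between the receptor genes and the Myh7 rise was not tested. Myh6 lay near the top of the value range, as did Atp2a2 and Pln (means of 13.14 and 13.12 over all arrays). There the cardiomyocyte marker Actc1 had the same value, 13.4922, on every sham array. The sorted values were nearly the same on all arrays, so a gene that keeps its rank keeps nearly the same value. Whether log2 differences of Myh6, Atp2a2 and Pln were compressed near the top of the range was not tested. The sizes of the Myh6 and Myh7 differences may therefore not be comparable.

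**Figure D4:**
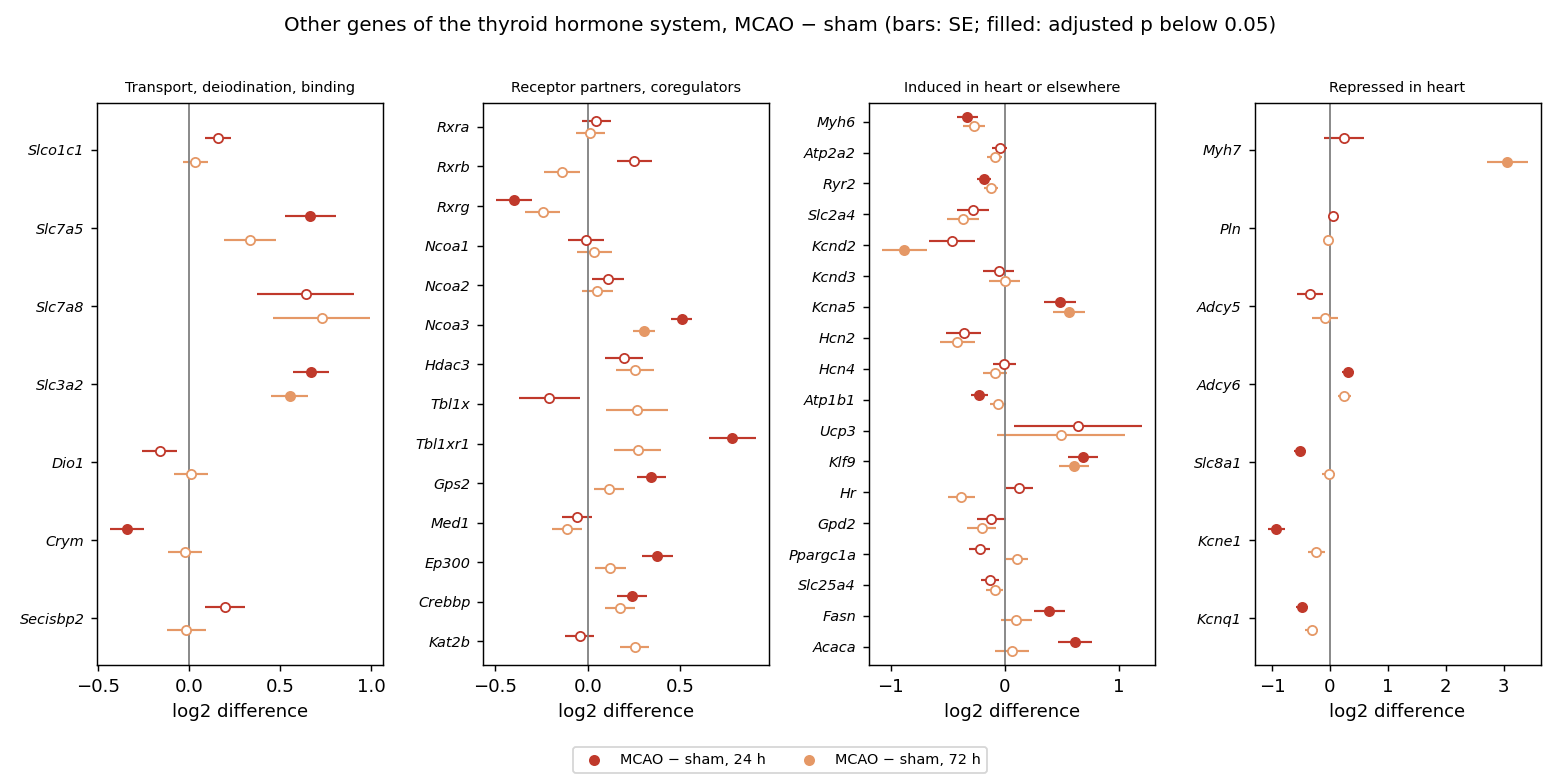
Log2 difference between MCAO and sham (points, with SE) at 24 h and 72 h for 46 other genes of the thyroid hormone system in 4 lists. Filled points had an adjusted p below 0.05. Slc3a2, Ncoa3, Klf9 and Kcna5 rose at both times, and Myh7 shows the widest difference, at 72 h. Axes differ between panels.

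Cell type markers that moved beside Thrsp were as follows, and their part in its values was not tested. Of 8 measured adipocyte markers 3 rose at 24 h (Adig, Cidec and Cidea) and 0 fell, where 11.1% of all genes rose and 10.8% fell. At 72 h 1 rose (Cidea) and 0 fell, against 1.17% and 1.19% of all genes. The mean log2 level of the list was 4.07 to 4.33 in sham 24 h, 4.28 to 4.43 in MCAO 24 h, 4.22 to 4.48 in sham 72 h and 4.18 to 4.46 in MCAO 72 h. Adipoq, Lep and Ucp1 averaged 3.38, 3.51 and 3.69, below the level that 95% of nasal receptor genes stayed under, and differed between MCAO and sham by 0.09, 0.06 and -0.10 at 24 h without passing. The other markers averaged 4.06 (Plin1), 4.15 (Retn), 3.99 (Cidec) and 7.87 (Cidea), above that level. Plin1 and Retn differed by -0.02 and -0.03 at 24 h and did not pass. For the difference between times 1 of the 8 passed, Adig, against 1.79% of all genes. Its effect was lower at 72 h than at 24 h (-0.38, SE 0.10, adjusted p = 0.0476), and it was dim (average 3.68). The difference was positive for 4 of the 8 (median -0.03), among them the bright Cidea (0.03, SE 0.19).

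Atrial markers had differences of the same signs as Thrsp at 24 h and between the times, whereas at 72 h 3 of 6 had the other sign. Their part in the values of Thrsp was not tested. All 6 were above sham at 24 h (median difference 0.46). Of these, 1 rose (Nr2f2, 0.40, SE 0.12, adjusted p = 0.0207) and 3 had an unadjusted p below 0.05. Of all genes 11.1% rose at 24 h, and 8320 of 24011 had an unadjusted p below 0.05. The widest differences at 24 h were those of Sln (2.79, SE 1.09, adjusted p = 0.0700) and Myl7 (2.27, SE 0.99, adjusted p = 0.103), which did not pass. At 72 h 3 of the 6 were above sham (median difference -0.02) and 0 passed (0 at an unadjusted p below 0.05). The effect at 72 h was lower than that at 24 h for all 6 (median -0.62, with -2.68 for Sln and -2.58 for Myl7). For that difference 0 passed (0 at an unadjusted p below 0.05). All 6 were also higher in sham 72 h than in sham 24 h (median 0.53), where 0 passed. The mean level of the list was 5.17 to 6.37 in sham 24 h, 5.55 to 9.07 in MCAO 24 h, 5.32 to 8.15 in sham 72 h and 5.49 to 7.87 in MCAO 72 h. In the same order of groups, the highest atrial level was on replicates 2, 1, 6 and 5. Thrsp on these arrays was 7.47, 8.16, 7.78 and 7.24. The lowest atrial level was on replicates 3, 6, 5 and 1, where Thrsp was 7.59, 7.97, 7.55 and 7.47.

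Markers beside Slc16a10 and the other genes were as follows, and their part was not tested either. Each count of calls is to be read against the 21.8% of all genes called at 24 h and the 2.35% at 72 h. Of these shares 2 of 7 is near the former. Counts at an unadjusted p below 0.05 are to be read against 8320 of 24011 genes at 24 h and 2627 at 72 h. Of 7 cardiomyocyte markers 2 fell at 24 h (Myh6 and Ttn) and 0 passed at 72 h (3 at an unadjusted p below 0.05). Their mean level was 12.6 to 12.8 in sham 24 h, 12.4 to 12.7 in MCAO 24 h, 12.7 to 12.9 in sham 72 h and 12.5 to 12.7 in MCAO 72 h. Of 6 fibroblast markers 3 fell at 24 h and 0 passed at 72 h (4 at an unadjusted p below 0.05), with mean levels of 8.12 to 8.49, 7.43 to 8.14, 8.03 to 8.80 and 7.87 to 8.31 in the same order. Those that fell were Col1a1, Lum and Dpt. At 72 h the 4 were these genes, below sham, and Pdgfra, above it (0.47, SE 0.13). Tcf21 was above sham at 24 h (0.26, SE 0.12) without passing. Of 5 endothelial markers 2 rose and 1 fell at 24 h, and 1 rose and 1 fell at 72 h, with mean levels of 9.03 to 9.27, 9.00 to 9.18, 8.93 to 9.19 and 8.84 to 9.00. Of 4 measured macrophage markers 0 passed at 24 h (1 at an unadjusted p below 0.05) and 0 at 72 h (0 unadjusted), with mean levels of 6.66 to 7.10, 6.30 to 7.05, 6.69 to 7.80 and 6.63 to 7.24.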

How the data were processed

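Per the labels, RNA was isolated with Trizol, and biotinylated cRNA was hybridised to Affymetrix arrays. The deposited table holds log2 values of 24973 gene identifiers on 24 arrays. That they are log2 and were quantile-normalized by the authors was judged from the values (sorted columns differed by at most 0.00191). The submitters' processing notes name HOMER, with no version or role; the summarization is not given in the sources used here. Array number limits the precision. Groups came from the titles; the free-text descriptions of the 72 h samples name 24 h and were not followed. Whether every array came from its own mouse is not stated, so the p-values cover only the spread among these samples, which may be technical.

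Symbols were known for 24015 identifiers; for 4 symbols with several identifiers the brightest was kept, and 958 unnamed identifiers were left out. Genes were tested with limma 3.58.1 in R 4.3.3 (lmFit and eBayes, 4 group means, 20 residual degrees of freedom, Benjamini-Hochberg adjustment at 0.05 over all genes); the fit was tested on simulated data. Same-numbered arrays did not pair: their deviations correlated at -0.05 to 0.01 at 24 h and -0.07 to 0.14 at 72 h. The members, lists and tests were chosen with earlier results of these data known. Named were the 7 genes, Myh6, Myh7, Nr1d1, Dio3os, listed genes past the threshold (up to 6 per list and time) and the 3 genes most correlated with each called member; other genes named were chosen after their values were seen. Listed genes and markers without a named row were not analysed here.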

Additional observations from a re-analysis of the deposited data

Results flagged for a closer look

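The MCAO effect on Thrsp differed between the times in limma's test of the difference (-0.84, adjusted p = 0.00713), and so did that on Myh7 (2.82, adjusted p = 0.00713). In 5 of 64 groups of 6 arrays checked with Dixon's test at 95%, about as many as chance gives at 1 in 20, a single array stood apart. Thra was low in sham 24 h replicate 3, at 8.05 against 8.56 for the next array. Thrb was low in MCAO 24 h replicate 6, at 5.72 against 6.46. In MCAO 24 h replicate 5 both Slc16a10, at 5.52 against 6.40, and Myh6, at 11.9 against 12.6, were low. Slc7a5 was low in sham 72 h replicate 3, at 3.88 against 4.21.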

How the results depend on the processing

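For the 7 genes and 4 comparisons, settings other than leaving out an array kept direction and side of the threshold in 200 values. Under those, 7 values newly passed, all at 72 h, and 2 turned sign: Dio2 at 24 h with array weights (-0.0142) and the difference between times of Thrb without MCAO 24 h replicates 5 and 6 (-0.0186). The members called at 72 h numbered 3 with array weights and 3 in the fit of the 12 arrays compared, and 1 without MCAO 24 h replicates 5 and 6, against 0. The other thyroid hormone genes called at 24 h numbered 12 with array weights and 12 in the 12-array fit (11 and 12 of the 20), at 72 h 13 and 11 against 6, and for the difference 2 with array weights and 2 when MCAO 24 h replicates 5 and 6 were left out, against 1. All genes called at 24 h numbered 3259 with array weights, 3438 with genes above the median level only and 2194 in the 12-array fit, against 5237. At 72 h they numbered 1905 with array weights, 1410 in the 12-array fit and 1103 without replicates 5 and 6, against 565. For the difference they were 218 among genes above the median level and 1079 without replicates 5 and 6, against 430, and for the sham groups 27 with array weights, 1 in the 12-array fit and 1 with the replicate block, against 5. The cause was not tested. With the replicate number as a block, the members' counts were 2, 0, 1 and 0 as without it, all genes numbered 4938, 519 and 295, and 18 of the 20 other genes at 24 h passed. Other sign turns were Nr1d1 at 24 h, at -0.12 with array weights and -0.0771 without replicates 5 and 6, and Acaca at 72 h with array weights (-0.00673). Leaving out single arrays gave 0 to 1 members at 72 h, 1 to 3 other genes for the difference, and 197 to 1012 (difference) and 1 to 6 (sham groups) of all genes. It also gave ranges across 0 for values near 0: Dio3 at 72 h -0.00553 to 0.0455, Dio2 between sham groups -0.12 to 0.0464, Myh7 at 24 h -0.0136 to 0.599, Nr1d1 at 24 h -0.0575 to 0.120, Dio3os at 72 h -0.0419 to 0.0622 and Acaca at 72 h -0.0220 to 0.164. Slc16a10 and Thrsp at 24 h and the difference of Thrsp passed in all 24 such fits. Values near the nasal receptor level, Dio2 and Dio3 among them, carry no detection limit.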
